A study of Mus musculus with 6 samples.

Results

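Nuclear receptors and the coregulators that work with them were followed in the livers of mice kept in isolation, as 35 genes chosen by symbol. All probe sets that the platform annotation ties to exactly 1 of these symbols were taken, which gave 98 probe sets for 33 of the 35 genes, out of 18193 genes and 45037 probe sets other than controls on the array. Nr1h2, which encodes the oxysterol receptor LXRbeta, and Ncor1, a corepressor, had no such probe set and were not measured here. The genes were sorted by role into 8 lipid and xenobiotic sensors with their dimer partners, 7 hormone and vitamin receptors, 12 orphan receptors and 8 coregulators. All 6 samples were livers of male BALB/c mice aged 10 weeks. The 3 isolated samples came from mice kept singly for 30 days with much less bedding than the controls, and the 3 control samples from mice without this exposure. Mice arrived 4 weeks old, lived 5 to a cage for a 10-day settling period, had food and water without limit, and their cages stood inside foam boxes. Isolation and reduced bedding went together and cannot be told apart. When livers were taken, and whether mice had fasted, was not stated.

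Nuclear receptors are transcription factors that bind DNA through zinc fingers and change their activity when a small fat-soluble molecule sits in their ligand pocket. In the liver they sense fatty acids, oxysterols, bile acids, drugs, retinoids and hormones, and many pair with a retinoid X receptor. A bound ligand exchanges corepressors for coactivators, and the coactivator PGC-1alpha, encoded by Ppargc1a, is itself raised by fasting. Orphan receptors have no settled natural ligand, and some, such as HNF4alpha, act largely without one.

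The upstream sequences of 6 genes are shown because the signals of these genes carried most of the differences described below. They are the 250 bases before the annotated start, 5′ to 3′ on the gene's own strand, from RefSeq on GRCm38.p6. Capitals mark every match, on either strand, to the hormone response hexamer AGGTCA, its direct repeat AGGTCANAGGTCA, the GC box GGGCGG, the E-box CACGTG or the cyclic AMP response core TGACG. Ppara, Nr1i2, Nr2c1, Nr2c2 and Ppargc1a had lower signals in isolated livers on their leading probe sets, and Esrra had a higher one.
Ppara, chr15:85735526-85735775, + strand: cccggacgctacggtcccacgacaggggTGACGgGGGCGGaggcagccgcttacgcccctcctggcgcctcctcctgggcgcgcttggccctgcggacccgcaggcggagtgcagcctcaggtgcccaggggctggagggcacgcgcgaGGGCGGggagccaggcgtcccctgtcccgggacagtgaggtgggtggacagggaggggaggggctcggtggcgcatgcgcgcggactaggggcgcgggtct
Nr1i2, chr16:38294825-38295074, - strand: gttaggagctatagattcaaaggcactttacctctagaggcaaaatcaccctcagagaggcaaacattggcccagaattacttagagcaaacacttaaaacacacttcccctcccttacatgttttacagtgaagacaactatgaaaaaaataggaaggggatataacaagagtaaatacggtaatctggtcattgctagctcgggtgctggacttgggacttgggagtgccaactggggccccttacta
Nr2c1, chr10:94147681-94147930, + strand: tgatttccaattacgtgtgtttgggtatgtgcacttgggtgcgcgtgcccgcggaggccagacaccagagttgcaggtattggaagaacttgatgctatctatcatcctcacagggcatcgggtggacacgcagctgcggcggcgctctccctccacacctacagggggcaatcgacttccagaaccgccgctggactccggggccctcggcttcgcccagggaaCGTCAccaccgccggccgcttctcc
Nr2c2, chr6:92092183-92092432, + strand: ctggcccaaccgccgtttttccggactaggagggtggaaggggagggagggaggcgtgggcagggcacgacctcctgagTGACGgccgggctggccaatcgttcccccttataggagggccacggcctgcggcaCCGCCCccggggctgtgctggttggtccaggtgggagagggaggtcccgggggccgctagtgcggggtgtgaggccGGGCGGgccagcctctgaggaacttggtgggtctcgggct
Ppargc1a, chr5:51567726-51567975, - strand: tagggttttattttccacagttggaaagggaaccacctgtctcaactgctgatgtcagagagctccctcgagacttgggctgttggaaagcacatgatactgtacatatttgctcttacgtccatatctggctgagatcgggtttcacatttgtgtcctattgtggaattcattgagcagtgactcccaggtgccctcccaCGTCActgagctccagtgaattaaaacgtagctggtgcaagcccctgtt
Esrra, chr19:6921809-6922058, - strand: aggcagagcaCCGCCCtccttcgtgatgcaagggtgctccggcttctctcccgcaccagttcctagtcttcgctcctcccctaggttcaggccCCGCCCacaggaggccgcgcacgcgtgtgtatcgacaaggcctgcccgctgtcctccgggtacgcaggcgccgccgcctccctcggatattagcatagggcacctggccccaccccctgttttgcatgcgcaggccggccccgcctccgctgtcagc

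A window was found for 30 of the 35 genes, 44 windows in all, since some genes have several annotated starts. None of the 6 windows shown held AGGTCA, which lay in 5 of the 44 windows (11.4%) and in 14% of 32851 mouse windows of the same length. The direct repeat lay in 0 of the 44 and in 0.0335% of all windows. GC boxes lay in the Ppara, Nr2c2 and Esrra windows, in 50% of the 44 and in 32.7% of all. The TGACG core lay in the Ppara, Nr2c1, Nr2c2 and Ppargc1a windows, in 22.7% of the 44 and in 17.8% of all, and the E-box in 6.82% and 6.02%. The GC content was 76.4% for Ppara, 71.2% for Nr2c2, 68.4% for Esrra, 62% for Nr2c1, 48% for Ppargc1a and 44% for Nr1i2, against a median of 59.6% over the 44 windows and 52.4% over all. The genes with lower signals thus included GC-rich and GC-poor upstream sequence. A match is a description of the letters and not a binding site.

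Signals are MAS5 intensities on a linear scale, and a difference between groups is a log2 change of isolated minus control. Median signals ran from 18.4 to 22.1 over the 6 arrays, and pairs of arrays correlated at 0.969 to 0.974 within a group and 0.955 to 0.968 between groups when compared over probe sets, which do not count as replicates. The 3′/5′ signal ratios of the array's quality control transcripts differed between groups by -0.03 (Gapdh, exact permutation p = 0.2) and -0.04 (beta-actin, exact permutation p = 0.8) on the log2 scale, two-sided, where 0.1 is the lowest p that 3 against 3 arrays allow. The summed signal of 6 hepatocyte markers, Alb and Ttr among them, was 57350 to 60140 in controls and 52630 to 58430 in isolated livers. Whether every array stands for its own mouse is left unsaid by the labels, so p-values measure only the spread between these arrays, which may be technical.

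Of all these receptors and coregulators, Ppara was the 1 gene that changed by the test used, falling in isolated livers. Its product, PPARalpha, is the fatty acid sensor that drives lipid oxidation genes in fasting. Of the 98 probe sets, 69 from 29 genes were bright enough to be tested, and 2 of the 69, both for Ppara, were called lower at a limma adjusted p under 0.05. Of 22519 tested probe sets, 1.63% were called, 0.857% lower and 0.773% higher. None was called higher. By the probe set with the highest mean, 1 of 29 genes was called, against 1.75% of 10986 genes. At an unadjusted limma p under 0.05 there were 11 lower and 3 higher, or 20.3% of the 69 against 11.4% of all tested probe sets, 4.53% lower and 6.89% higher. The log2 change lay below 0 for 46 of the 69 (66.7%) against 44.6% of all tested, with medians of -0.09 and 0.04. By gene, 18 of 29 lay below 0 (62.1%) against 41.6% of all tested genes. The 35 genes were chosen with earlier results of these data known, so none of the shares in this paragraph is independent evidence. Isolated and control arrays did not overlap for 13 of the 69, 11 lower and 2 higher, or 18.8% against 15.4% of all tested probe sets. The 11 lower ones were 15.9% of the 69, against 5.79% of all, where 9.62% were higher, and belonged to 6 genes, Ppara, Nr1i2, Nr2c1, Nr2c2, Nr5a2 and Ppargc1a. Probe sets of 1 gene are tied to the same gene and read on the same arrays, and are not independent. In whole liver, fewer cells of a type and less RNA per cell cannot be told apart.

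**Figure D1:**
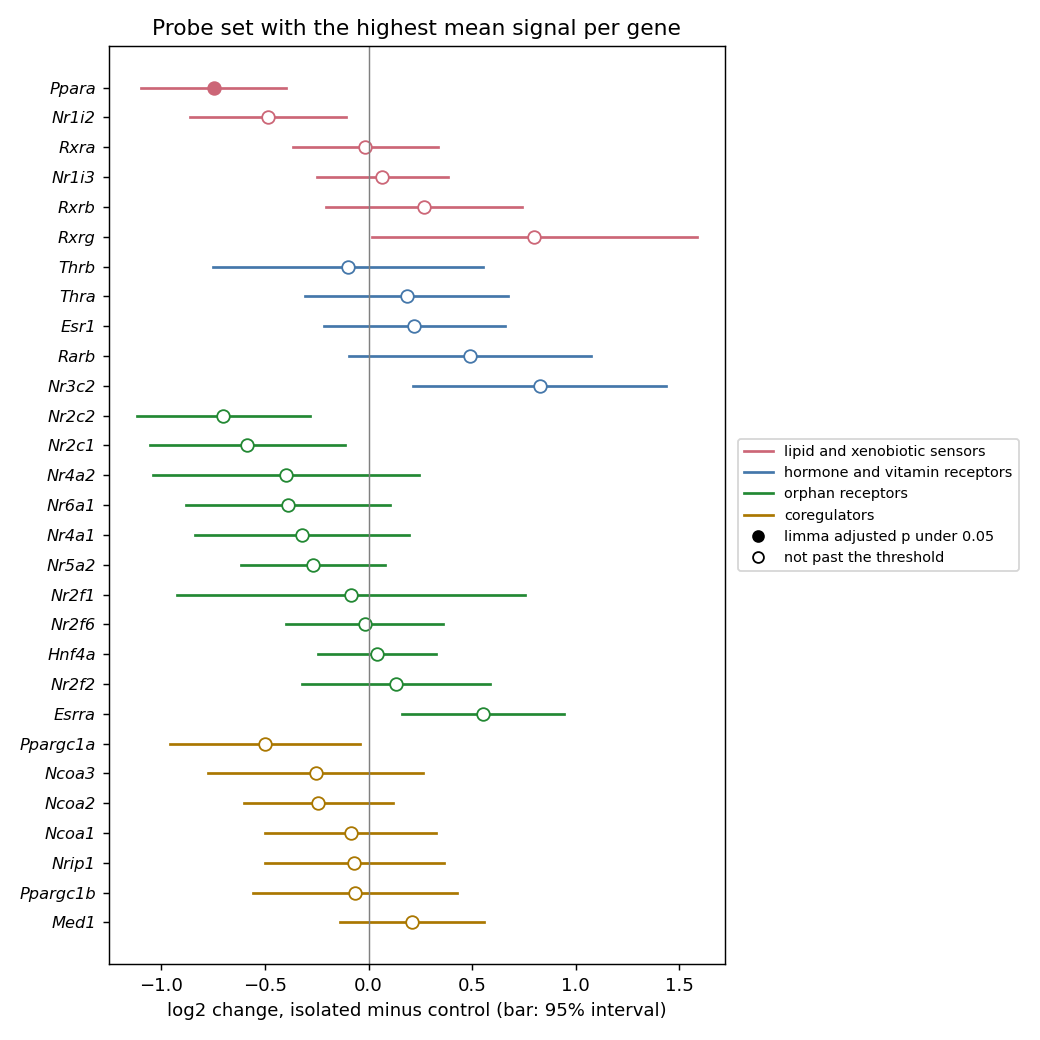
The log2 change of isolated minus control (horizontal axis) is plotted for the probe set with the highest mean of each of 29 genes, with its 95% limma interval and coloured by class. Ppara, at -0.75, is the 1 filled point, past an adjusted p of 0.05; the others run from -0.70 for Nr2c2 to 0.83 for Nr3c2.

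By class, the lipid and xenobiotic sensors had 3 genes below 0 and 3 above among 6 tested, with a median log2 change of 0.03. The hormone and vitamin receptors had 1 below and 4 above among 5, with a median of 0.22. Among 11 orphan receptors 8 lay below 0 and 3 above, with a median of -0.27, and among 7 coregulators 6 lay below and 1 above, with a median of -0.09. Over all tested genes 41.6% lay below 0, and the median was 0.05. Differences between the classes were not tested.

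Among the lipid sensors, the Ppara probe set 1449051_at read 1418, 1500 and 1826 in controls 1, 2 and 3 and 747, 731 and 988 in isolated livers 1, 2 and 3. Every isolated array lay below every control array. The control mean was 1581 ± 216 and the isolated mean 822 ± 144 (SD, n = 3), 1.93-fold lower (log2 change -0.95, SE 0.157, limma adjusted p 0.00168). The probe set with the highest mean, 1439675_at, read 1411, 1396 and 1768 against 839, 749 and 1167, and again the groups did not overlap. It fell 1.68-fold (log2 change -0.75, SE 0.167, limma adjusted p 0.022). The third, 1457721_at, read 595, 522 and 653 against 366, 390 and 534. There isolated replicate 3 lay above the lowest control, and the log2 change of -0.47 had a limma adjusted p of 0.247. Isolated replicate 3 was the highest isolated array for all 3 Ppara probe sets, and control replicate 3 the highest control. Without the intensity trend in the variance model neither call held (adjusted p 0.15 and 0.264), and the call on 1439675_at was also lost without a filter (0.0931) and without control replicate 3 (0.126), isolated replicate 1 (0.0593) or isolated replicate 2 (0.0659). Leaving out 1 array at a time gave log2 changes of -1.09 to -0.84 for 1449051_at and -0.93 to -0.61 for 1439675_at, and 1449051_at kept its call in each of these fits.

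Nr1i2, which encodes the drug sensor PXR, had the other lower signal among the sensors. Its probe set 1425723_at gave signals of 183, 202 and 200 in controls against 129, 157 and 132 in isolated livers, so the groups did not overlap. The log2 change was -0.49 (SE 0.181), which did not pass over all probe sets (limma adjusted p 0.25). Its other probe set had a log2 change of -0.32, with groups that overlapped. Nr1i3, which encodes the related drug sensor CAR, read 693 ± 26.0 in controls and 729 ± 84.0 in isolated livers, with a log2 change of 0.07 and a 95% interval of -0.25 to 0.38. The arrays of the groups overlapped. Both sensors share many drug-metabolising target genes, and the difference between them was not tested.

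The retinoid X receptors are the dimer partners of PPARalpha, PXR, CAR and the retinoic acid, thyroid hormone and vitamin D receptors. Rxra, the main form in liver, read 472 ± 29.1 in controls and 472 ± 83.7 in isolated livers, with a log2 change of -0.01 and a 95% interval of -0.37 to 0.34. Its second tested probe set, at -0.10, overlapped between the groups as well. Rxrb had a log2 change of 0.27 (limma adjusted p 0.76). Rxrg, a form better known from muscle and brain, was dim, at 23.1, 10.4 and 27.6 in controls and 44.3, 37.8 and 24.5 in isolated livers. Isolated replicate 3 lay below the highest control, and the log2 change of 0.80 had a limma adjusted p of 0.424 and moved to 0.42 without control replicate 2. Ppard, a sibling of Ppara, was below the filter on both probe sets, at 26.9 or less on every array, and a further probe set that names Ppard together with another symbol was left out.

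Among the hormone and vitamin receptors, Nr3c2, which encodes the mineralocorticoid receptor, had the largest log2 change. It gave signals of 40.9, 26.1 and 46.4 in controls against 47.6, 58.2 and 107 in isolated livers. The groups did not overlap, though isolated replicate 1 exceeded the highest control by little. The log2 change was 0.83 (SE 0.293, limma adjusted p 0.213), and it was 0.49 without isolated replicate 3. The summed signal of 8 adipocyte markers was also highest on isolated replicates 2 and 3, at 279, 416 and 360 in controls and 328, 529 and 586 in isolated livers. Fabp4, a fatty acid carrier, was its largest part on every array, at 117, 202 and 158 against 203, 300.3 and 404. Fabp4, Adipoq and Retn were highest on those arrays, but 3 of the 4 tested markers had log2 changes below 0 (median of the 4 -0.23), and Plin4 fell. Adipoq read 4.38 to 15.6 in controls and 3.78, 59.5 and 54.8 in isolated livers, while Lep stayed at 3.31 or less on every array and none was listed at 0. Their part in the Nr3c2 signal was not tested.

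Rarb, a retinoic acid receptor that is itself switched on by retinoic acid, gave signals of 37.3, 41.1 and 23.6 in controls against 37.5, 51.6 and 54.7 in isolated livers. The groups overlapped, and the log2 change of 0.49 had a limma adjusted p of 0.562. Stellate cells store the liver's retinoids. Of 11 tested markers of stellate cells and fibroblasts, 10 had log2 changes above 0, with 0 called by limma. The median of the 11 was 0.18. Over all tested genes the median was 0.05, and 41.6% lay below 0. The summed signal of the 12 markers on the array was 3603 to 4478 in controls and 3814 to 4654 in isolated livers. Their part in the Rarb signal was not tested. Esr1, the estrogen receptor, read 257, 422 and 365 against 547, 339 and 339, with isolated replicate 1 above all others and a log2 change of 0.22. The thyroid hormone receptor genes Thra and Thrb had representative log2 changes of 0.18 and -0.10, and the 3 Thra probe sets ran from -0.20 to 0.18. Rara and the vitamin D receptor gene Vdr were below the filter, at 8.65 and 21.5 or less on every array.

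The orphan receptors with the largest differences were Nr2c1 and Nr2c2, which encode TR2 and TR4, close relatives that pair with each other and bind direct repeats. For Nr2c2, probe set 1454851_at gave signals of 286, 281 and 405 in controls against 190, 159 and 249 in isolated livers. The groups did not overlap. The mean was 324 ± 70.5 in controls and 199 ± 46.1 in isolated livers, and the log2 change of -0.70 (SE 0.201) missed the threshold (limma adjusted p 0.0931). A second Nr2c2 probe set, 1451569_at, read 40.2, 85.7 and 52.4 against 38.1, 21.9 and 21.2, where isolated replicate 1 came close to control replicate 1. The groups did not overlap, and the log2 change was -1.06 (SE 0.31, limma adjusted p 0.102). The call on 1454851_at was made with quantile normalization (limma adjusted p 0.025), with the upper 30% of probe sets (0.0354) and without isolated replicate 3 (0.036), and that on 1451569_at without control replicate 1 (0.0445) or isolated replicate 1 (0.0281). The third tested probe set lay at -0.53.

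Nr2c1 had lower signals as well, without a call. Its probe set 1418605_at gave signals of 81.9, 81.3 and 118 in controls against 51.3, 57.7 and 75.9 in isolated livers (log2 change -0.59, SE 0.226, limma adjusted p 0.276). Probe set 1446194_at read 44.2, 41.5 and 55.0 against 26.5, 26.5 and 28.9 (log2 change -0.73, SE 0.269, limma adjusted p 0.243). Neither pair of groups overlapped. The other 2 tested probe sets had log2 changes of -0.35 and -0.25, so all 7 tested probe sets of the pair lay below 0 while none was called.

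**Figure D2:**
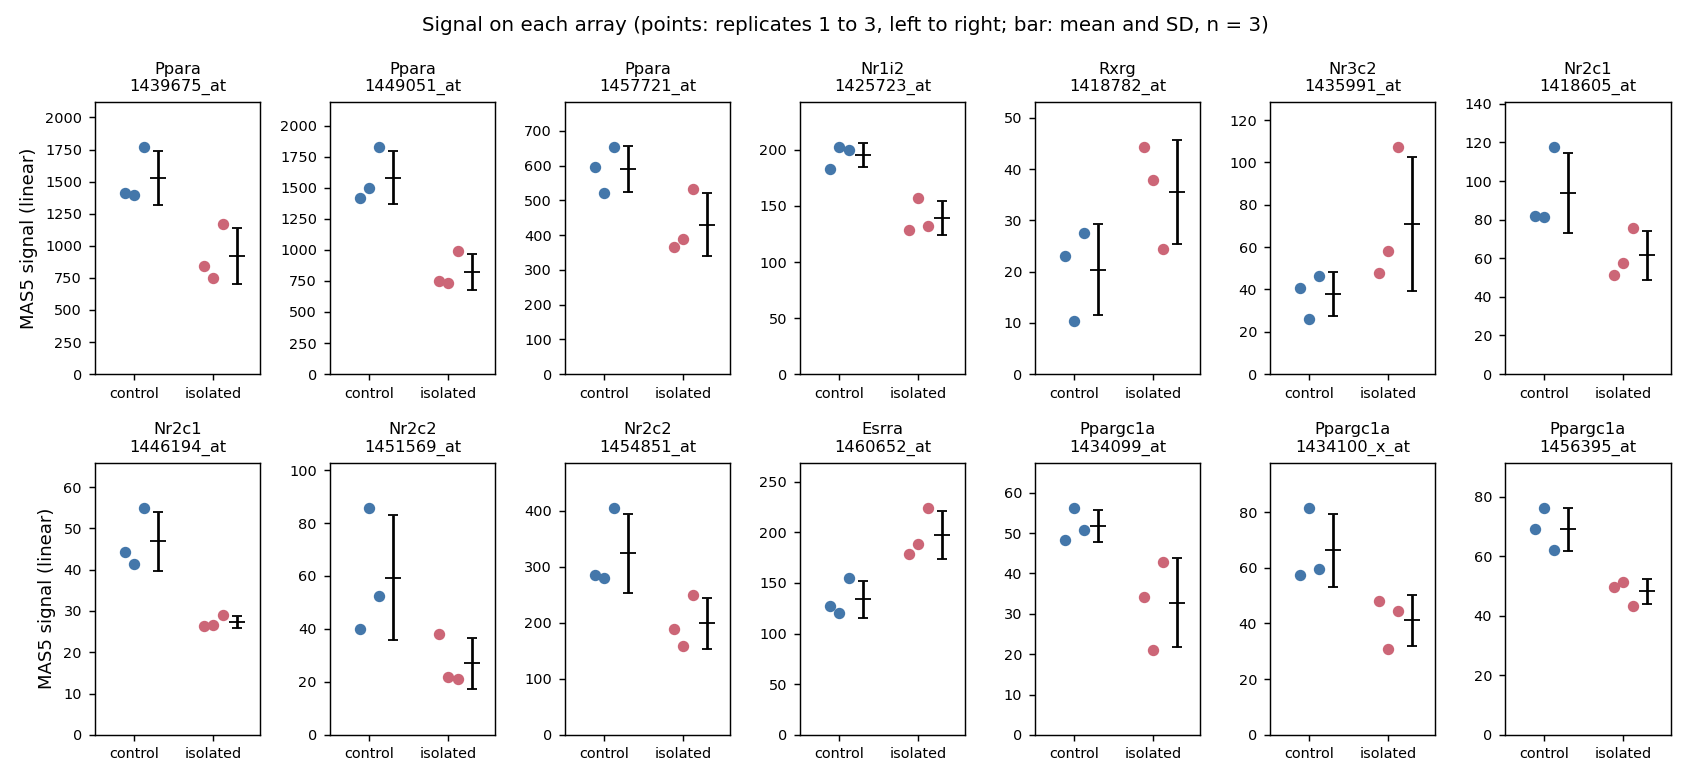
MAS5 signal (vertical axis, linear, from 0) is plotted for each array of 14 probe sets, those of Ppara and the others picked by the rule in the methods, with control points in blue, isolated points in red and bars for the mean and SD (n = 3). For Ppara 1449051_at the isolated points sit at 731 to 988, below the controls at 1418 to 1826, and Esrra and Nr3c2 show isolated points above all controls.

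Esrra, which encodes the estrogen-related receptor ERRalpha, a partner of PGC-1 coactivators on mitochondrial genes, had a higher signal. Its probe set 1460652_at gave signals of 127, 121 and 155 in controls against 179, 189 and 224 in isolated livers, so the groups did not overlap. The mean was 134 ± 18.1 in controls and 197 ± 23.8 in isolated livers, and the log2 change of 0.55 (SE 0.187) did not pass (limma adjusted p 0.186). A second, dimmer Esrra probe set had a log2 change of -0.51 with overlapping groups, and the mean of both gave 0.02. The 2 probe sets of Esrra thus disagreed in sign.

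HNF4alpha, encoded by Hnf4a, is a master regulator of hepatocyte identity. Its brightest probe set read 2917 ± 458 in controls and 2981 ± 243 in isolated livers, with a log2 change of 0.04 and a 95% interval of -0.24 to 0.32, and its 4 probe sets ran from -0.09 to 0.13. Nr5a2, which encodes LRH-1, a regulator of bile acid synthesis, gave signals of 373, 357 and 360 in controls against 268, 298 and 341 in isolated livers on its brightest probe set. These groups did not overlap, but the log2 change was -0.27 (limma adjusted p 0.609) and the other tested probe sets lay at -0.09 and 0.09. The early response receptor genes Nr4a1 and Nr4a2 had log2 changes of -0.32 and -0.40, and 5 of the 6 Nr4a2 probe sets were below the filter. Nr6a1 lay at -0.39, Nr2f1 at -0.08, Nr2f2 at 0.13 and Nr2f6 at -0.02, with limma adjusted p of 0.6 or more for each. The intestinal relative Hnf4g was near background on its 3 probe sets, at 6.42 or less on every array.

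Among the coregulators, Ppargc1a had the lowest representative log2 change, and its 5 probe sets all lay below 0, from -0.68 to -0.28. Probe set 1456395_at gave signals of 69.0, 76.2 and 62.0 in controls against 49.8, 51.3 and 43.4 in isolated livers, and the groups did not overlap. Its log2 change was -0.50 (SE 0.22, limma adjusted p 0.375). Probe set 1434099_at read 48.4, 56.2 and 50.9 against 34.3, 21.0 and 42.9, and probe set 1434100_x_at read 57.5, 81.5 and 59.7 against 48.1, 30.8 and 44.6. Isolated replicate 2 was the lowest array for both, and without it the log2 change of 1434099_at moved from -0.68 to -0.41. The groups did not overlap, and neither passed (limma adjusted p 0.323 and 0.25). Ppargc1b, the sibling coactivator, had a log2 change of -0.07 with a control spread of 122 to 284.

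The p160 coactivators Ncoa1, Ncoa2 and Ncoa3, which bring histone acetyltransferases to receptors, had representative log2 changes of -0.09, -0.24 and -0.26, and all 4 Ncoa2 probe sets lay below 0. Med1, the Mediator subunit that contacts receptors, lay at 0.21. Nrip1, a corepressor also known as RIP140, lay at -0.07 on its brightest probe set, while a dim one gave signals of 13.6, 37.7 and 40.5 in controls against 16.3, 7.69 and 20.3 in isolated livers and had a log2 change of -0.91 (limma adjusted p 0.474). None of the coregulators was called.

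**Figure D3:**
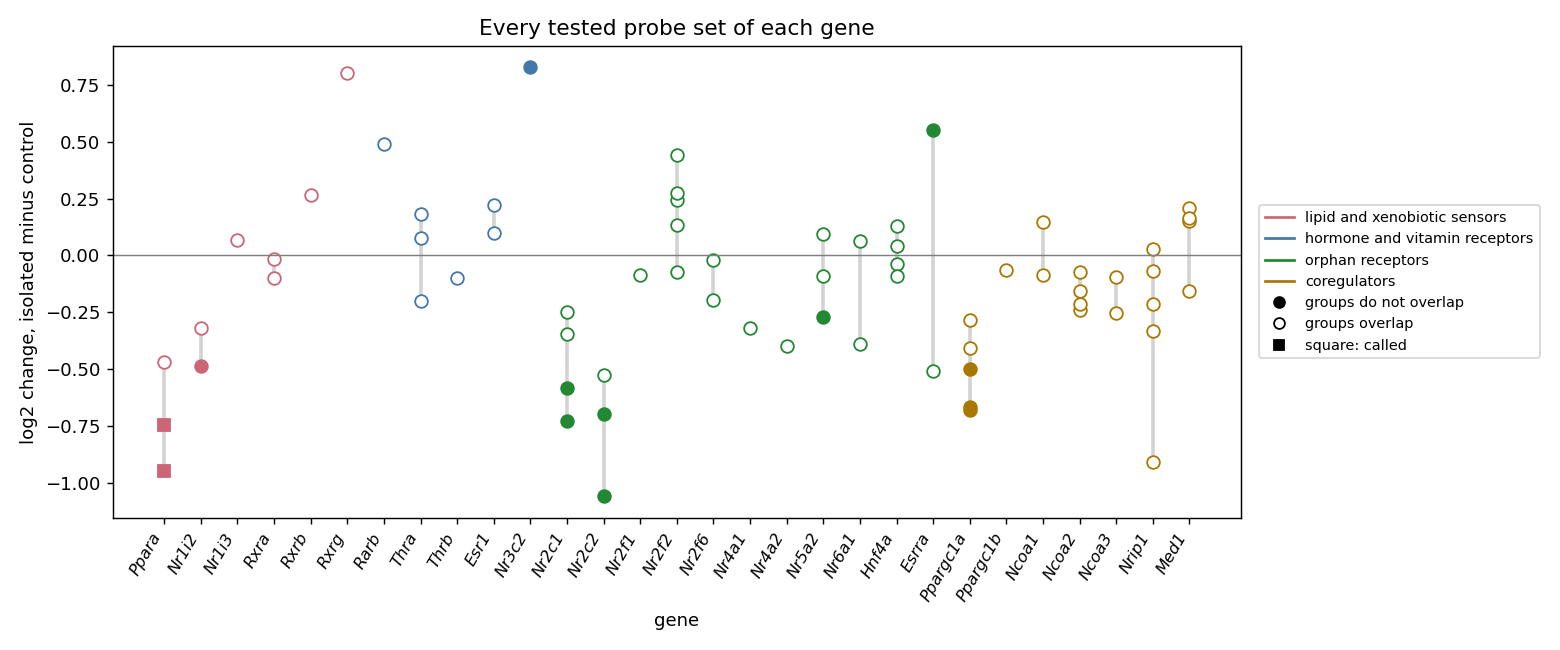
Each of the 69 tested probe sets is a point at its log2 change of isolated minus control (vertical axis), grouped by gene and coloured by class; filled points mark groups that do not overlap and squares mark calls. All points of Ppara, Nr1i2, Nr2c1, Nr2c2 and Ppargc1a lie below 0, while the 2 points of Esrra lie at 0.55 and -0.51.

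Of the 19 genes with several tested probe sets, Ppara, Nr1i2, Rxra, Nr2c1, Nr2c2, Nr2f6, Ppargc1a, Ncoa2 and Ncoa3 had all of theirs below 0. Esr1 had both above 0. Some of these changes were near 0, at -0.01 and -0.10 for Rxra and -0.02 and -0.20 for Nr2f6. The share of such genes over the whole array was not counted, so these signs are not read as a difference. Another 29 of the 98 probe sets were below the filter, and 4 of these separated the groups, 1 each of Nr2c1, Nr2f2, Nr6a1 and Hnf4g, with isolated arrays lower. These 4 had isolated means of 12.3 or less, under the filter level of 18.0, where MAS5 values are noisy. Among all tested probe sets 15.4% separated the groups. The share over all probe sets below the filter was not counted, so these 4 are not read as a difference. The median residual SD of the tested probe sets of these genes was 0.3 on the log2 scale, against 0.254 over all tested probe sets, at similar median log2 values of 6.33 and 6.34.

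Other nuclear receptors outside the chosen 35 were taken from a list of 21, of which 10 were tested. Nr0b2, the repressor SHP, was the 1 call, 2.73-fold lower with a limma adjusted p of 0.000292, and 9 did not pass, against 0.847% of all tested genes called lower and 0.901% higher. The median log2 change of the 10 was -0.44, beside 0.05 over all tested genes. The clock receptor gene Rora read 471 ± 58.4 in controls and 324 ± 34.3 in isolated livers without overlap (limma adjusted p 0.138). Nr1d2, another clock receptor gene, read 1871 ± 270.3 and 1333 ± 405 with overlap (limma adjusted p 0.186). Of 25 tested coregulators outside the 35, Pnrc1, a coactivator with a proline-rich motif, was the 1 call. It was 1.72-fold lower, at 425 ± 66.2 against 731 ± 108 (limma adjusted p 0.0163), and the call was lost without control replicate 2 (0.124) or isolated replicate 2 (0.0536). Without the intensity trend neither Nr0b2 (0.106) nor Pnrc1 (0.204) passed. The median of the 25 was -0.05.

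Genes known to respond to these receptors were counted from lists set by receptor, leaving out the 35. Of 24 tested PPARalpha targets 10 were called lower and 0 higher. Their log2 changes lay below 0 for 21 and above 0 for 3, with a median of -0.60. The largest falls were in Pdk4, an inhibitory kinase of pyruvate dehydrogenase (15.3-fold), the hormone gene Fgf21 (6.45-fold), Angptl4, an inhibitor of lipoprotein lipase (4.2-fold), and the thioesterase Acot1 (3.45-fold). This list was chosen with these lower signals already known and is not independent evidence of them. Without the intensity trend, 2 of the 24 were called lower, and with robust variances Pdk4 (limma adjusted p 0.0709) and Angptl4 (0.0699) did not pass.

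Of 5 tested retinoic acid receptor targets, 2 had log2 changes below 0 and 3 above, with a median of 0.295. Cyp26a1, the hydroxylase that clears retinoic acid, was the 1 call. It gave signals of 60.3, 53.9 and 45.2 in controls against 107, 202 and 183 in isolated livers, with no overlap. It rose 2.92-fold (log2 change 1.55, SE 0.235, limma adjusted p 0.000692). The call was lost without the intensity trend (0.0797), and on isolated replicate 1 alone, set against the controls, the log2 change was 0.99 (0.157).

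Of 11 tested thyroid hormone receptor targets 3 were called higher and 1 lower, with a median of 0.20. Idh3a, a subunit of mitochondrial isocitrate dehydrogenase, rose 1.71-fold and the lipogenic Thrsp 1.55-fold, Cyp7a1 rose 5.51-fold, and Klf9 fell 2.18-fold. Of 18 PGC-1 and ERRalpha targets Idh3a rose and Pdk4 fell, with a median of -0.01. Of 11 LXR targets Srebf1 rose 5.26-fold, with a median of -0.19, and of 20 HNF4alpha targets Cyp7a1 rose, with a median of -0.05. Of 18 PXR and CAR targets Cyp2c38 rose 1.74-fold and Gadd45b fell 2.73-fold, with a median of 0.05, and the 1 tested vitamin D receptor target was not called. Cyp7a1, Idh3a and Pdk4 each stand in more than 1 of these lists. In limma fits without the intensity trend, Idh3a (adjusted p 0.184), Thrsp (0.307), Cyp7a1 (0.0797), Klf9 (0.123), Cyp2c38 (0.244) and Gadd45b (0.193) did not pass, nor did Cyp7a1 with robust variances (0.2). Leaving out single arrays removed the call on Cyp2c38 for control 2 (0.165), control 3 (0.117), isolated 1 (0.073) and isolated 2 (0.126), on Thrsp for control 2 (0.142) and isolated 3 (0.0944), and on Gadd45b for control 2 (0.0689).

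Among cell type markers, the 1 call was Plin4, from the adipocyte list, lower by 2.69-fold (limma adjusted p 0.00695), a call lost without a filter (0.0621), without the trend (0.11) or without control replicate 3 (0.0734). Limma called 0 of 6 hepatocyte, 0 of 11 stellate cell and fibroblast, 0 of 11 Kupffer cell and macrophage, 0 of 12 endothelial, 0 of 2 cholangiocyte, 0 of 2 lymphocyte and 0 of 1 pancreas markers.

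**Figure D4:**
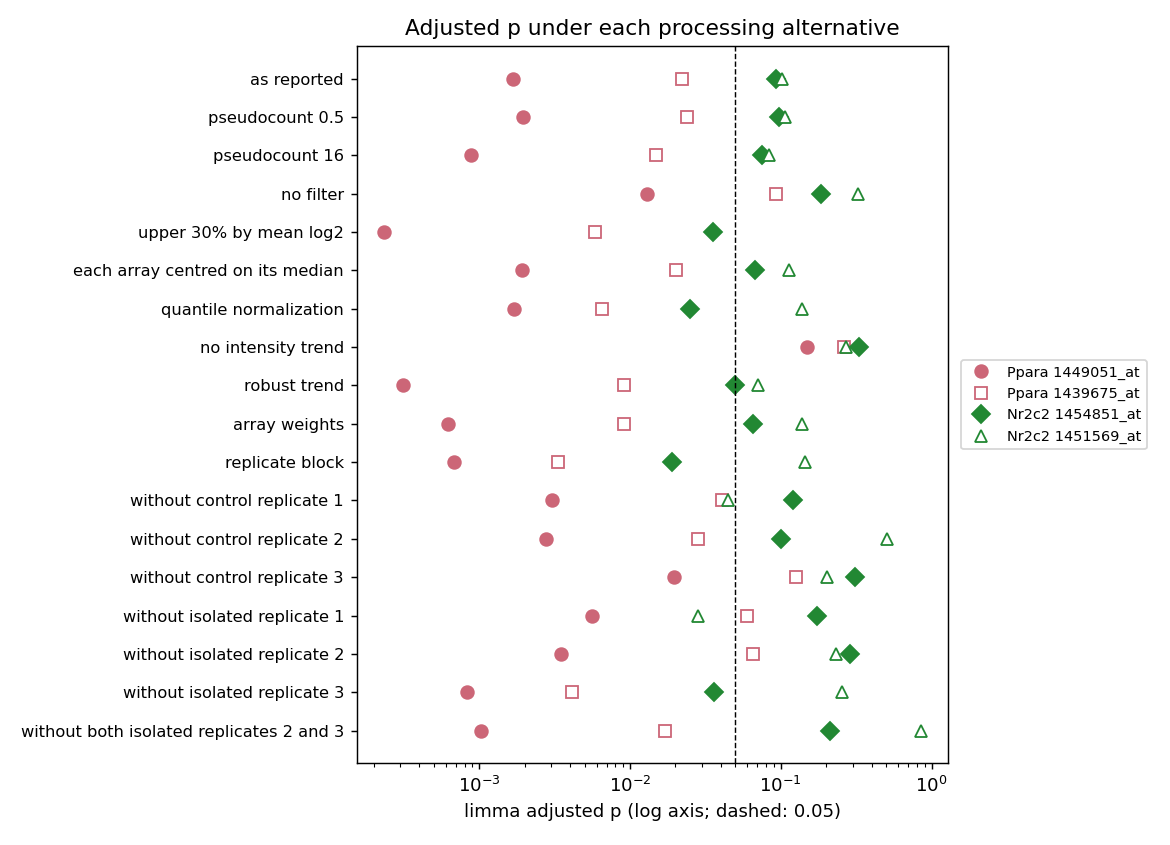
The limma adjusted p (horizontal log axis, dashed line at 0.05) is plotted for the called Ppara probe sets and the pair of Nr2c2 probe sets nearest the threshold under each processing alternative (vertical axis). Ppara 1449051_at lies left of the line in all but the fit without the intensity trend, at 0.15, and Nr2c2 1454851_at crosses it in some alternatives, among them quantile normalization at 0.025.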

How the data were processed

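Liver RNA from 3 control and 3 isolated samples was measured, 1 Affymetrix array each. The deposited values are linear intensity values that the authors made with MAS5, according to the submitters' processing notes. Neither its version nor its scaling target was stated. RNA, per the labels' protocols, was extracted with TRIzol, column-purified and labelled from 2 µg. No detection call was at hand, so dim values are noisy and the number of arrays limits the precision.

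The deposited scale was kept. A pseudocount of 2, the 10th percentile rounded, was added before log2, which understates changes of dim probe sets. The upper 50% of probe sets by mean log2 value (4.32 or more) were tested with limma 3.58.1 in R 4.3.3, with 2 groups, an intensity trend in eBayes, two-sided p and Benjamini-Hochberg adjustment over all 22519 tested. Prior degrees of freedom were 16.1 and residual ones 4, so the fitted trend sets much of each variance. A gene was represented by its tested probe set with the highest mean. The procedure was run on simulated data whose spread was drawn from an intensity trend, so that run cannot test the trend itself.

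Members, lists and tests were chosen with earlier results of these data known. Given array by array were called probe sets, those without overlap and with a log2 change of at least 0.5 in size, and representative ones with an unadjusted p under 0.05; the remaining Ppara probe set and those of Rarb, Esr1, Nr5a2 and Nrip1, as well as Rora and Nr1d2, were added after their values were seen. From other lists, called genes were named, up to 4 each, or up to 2 by p. Alternatives covered the pseudocount, filter, scale, variance model, array weights, replicate block, probe set per gene and each array left out. Sequences came from RefSeq tables of GRCm38.p6, matched by symbol. Figures were drawn with matplotlib 3.10.9.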

Additional observations from a re-analysis of the deposited data

How the results depend on the processing

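The number of called probe sets of these genes, 2 over all arrays, was 1 without a filter, 0 without the intensity trend, 3 in the upper 30% of probe sets, with quantile normalization or with the replicate block, and 1 to 3 with 1 array left out. Called genes, 1 by representative probe set, numbered 0 without a filter or without the trend, 2 in the upper 30% of probe sets, with quantile normalization or with the replicate block, and 0 to 2 with 1 array left out. Of the 69 log2 changes, 46 were below 0. In the upper 30% of probe sets, which tests fewer, 27 were, and 37 to 51 with 1 array left out. The median over all tested probe sets, 0.0352 with all arrays, moved as well. It was 0.102 without isolated replicate 2, where 39 of the 69 were below 0, and -0.0295 without isolated replicate 3, where 48 were. The share below 0 over all probe sets was not counted in these fits. Over all tested probe sets 193 were called lower and 174 higher, against 101 and 81 without a filter, 16 and 15 without the trend, and 183 and 258 with each array centred on its median. Higher calls numbered 264 in the upper 30%, 265 with the replicate block and 88 when isolated replicates 2 and 3 were both left out, an alternative added once the data had been seen. With 1 array left out, lower calls ran from 82 (without control replicate 3) to 243 and higher calls from 97 (without isolated replicate 3) to 187, with 115 without control replicate 2. Without the trend, 2 companion genes were called lower and 1 higher, against 15 and 6, and 2 PPARalpha targets were called lower, against 10. With isolated replicate 1 as the lone isolated array, its spread is taken to equal that of the controls. The cause of these differences was not tested. The filter alternatives changed both the number of probe sets tested and the fitted variances.

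Same-numbered control and isolated arrays correlated at 0.00777, 0.0436 and 0.00491 in their deviations from the group means. Differently numbered ones correlated at -0.0422 to 0.0373. These values run over all tested probe sets together and cannot tell whether the numbers pair the arrays. With the replicate block, 248 probe sets were called lower and 265 higher, against 193 and 174 without it. Among the 14 probe sets drawn in the plot of signal by array, the block changed 1 call, Nr2c2 1454851_at (limma adjusted p 0.019). None of those 14 probe sets changed sign under any alternative. Of the other 55 tested, which include those of Rarb, Esr1, Nr5a2 and Nrip1 given by array in the text, 29 had log2 changes on both sides of 0 over the 16 alternatives and 0 were called in any of these limma fits, so their directions are not established at this number of arrays.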
